A study of Mus musculus with 12 samples.

Results

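The glycolysis, hypoxia and nutrient uptake genes are 40 genes listed by name: 2 glucose transporters, 13 enzymes of glycolysis, 5 genes of lactate and pyruvate handling, 2 regulators of phosphofructokinase, 11 genes of oxygen sensing and hypoxia response, the transcription factor Myc, 5 amino acid transporters and the transferrin receptor. A member was kept when it had 10 or more counts in at least 3 libraries, and 40 of 40 listed genes met this, out of 52636 identifiers in the table.

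T cells that divide and make cytokines take up glucose through the GLUT transporters and turn much of it into lactate, which leaves the cell with a proton through the MCT transporters. When oxygen is short, the prolyl hydroxylases encoded by Egln1 and Egln3 no longer mark HIF-1α for destruction, and HIF-1 then switches on glucose transporters, glycolytic enzymes, the lactate exporter Slc16a3 and mitophagy genes such as Bnip3. MYC raises many of the same enzymes in activated T cells together with the amino acid transporters Slc7a5, Slc3a2 and Slc1a5 and the transferrin receptor Tfrc.

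The libraries were QuantSeq 3′ RNA-seq of CD8+ T cells sorted as GFP+ or GFP− from AT3ova tumors, a mammary carcinoma line that expresses ovalbumin, grown under the skin of A2AR eGFP reporter mice on a C57BL/6 background. In these mice GFP comes from a BAC transgene, Tg(Adora2a-EGFP)EP141Gsat, in which control elements of the adenosine receptor gene Adora2a drive EGFP. GFP therefore reads out the activity of these elements and not the receptor protein. All groups carried the transgene and the tumor, and tumors were taken at day 21. There were 4 groups of 3 libraries, each library pooled from 3 mice: non-treated GFP− (KT14, KT16, KT18), non-treated GFP+ (KT13, KT15, KT17), anti-PD-L1 GFP− (KT20, KT22, KT24) and anti-PD-L1 GFP+ (KT19, KT21, KT23), the antibody being given at days 14 and 18. Mice were between 6 and 16 weeks old. Values for single libraries are given below in this order.

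Libraries held 11292699 to 19023900 counts. Adora2a was at 19.7 to 34.6 CPM (normalised counts scaled to the same library total by TMM) in GFP− and 60.2 to 111 CPM in GFP+ libraries. CD8 T cell markers summed to 3867 to 6016 CPM in each library, and of the 2 listed CD4 T cell markers Cd4 was at 0 in 7 libraries and at most 0.919 CPM in the others, while Foxp3 was at 6.44 to 24.9 CPM. KT13 and KT21, 1 GFP+ library of each treatment, stood apart from the rest across all genes and had a median Spearman correlation with the other libraries of 0.941 and 0.935 against 0.967 to 0.977 for the other 10. Within a group, pairs of libraries with neither of them differed by a chi-square per degree of freedom of 12.6 to 22.6, and pairs with KT13 or KT21 by 82.1 to 112. All tests were therefore run over 12 libraries and again over the 10 without these, which leaves 2 GFP+ libraries for each treatment. The study's legends give 2 GFP+ and 3 GFP− libraries, and its text and legends do not name those left out. With the filter on low counts used throughout, every member or listed gene called by edgeR in these 2 sets passed over the 10 libraries and not over the 12.

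The members with the lowest levels were Pfkm (1.83 to 4.99 CPM), Vegfa (0.0713 to 3.92 CPM), Ldhb (0 to 2.09 CPM) and Pfkfb4 (0 to 1.96 CPM), and fold changes of the last 3 are poorly fixed. Within groups the members varied by a median SD of 0.24 on the log2(CPM + 0.5) scale, against 0.37 for all genes tested, with single members between 0.11 and 0.89. KT21 carried the highest value of 15 of the 40 members, 10 of them among the 13 glycolytic enzymes, and the lowest value of 7. The lowest value of 12 members fell in KT17 and of 10 in KT15, both non-treated GFP+ libraries.

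**Figure D1:**
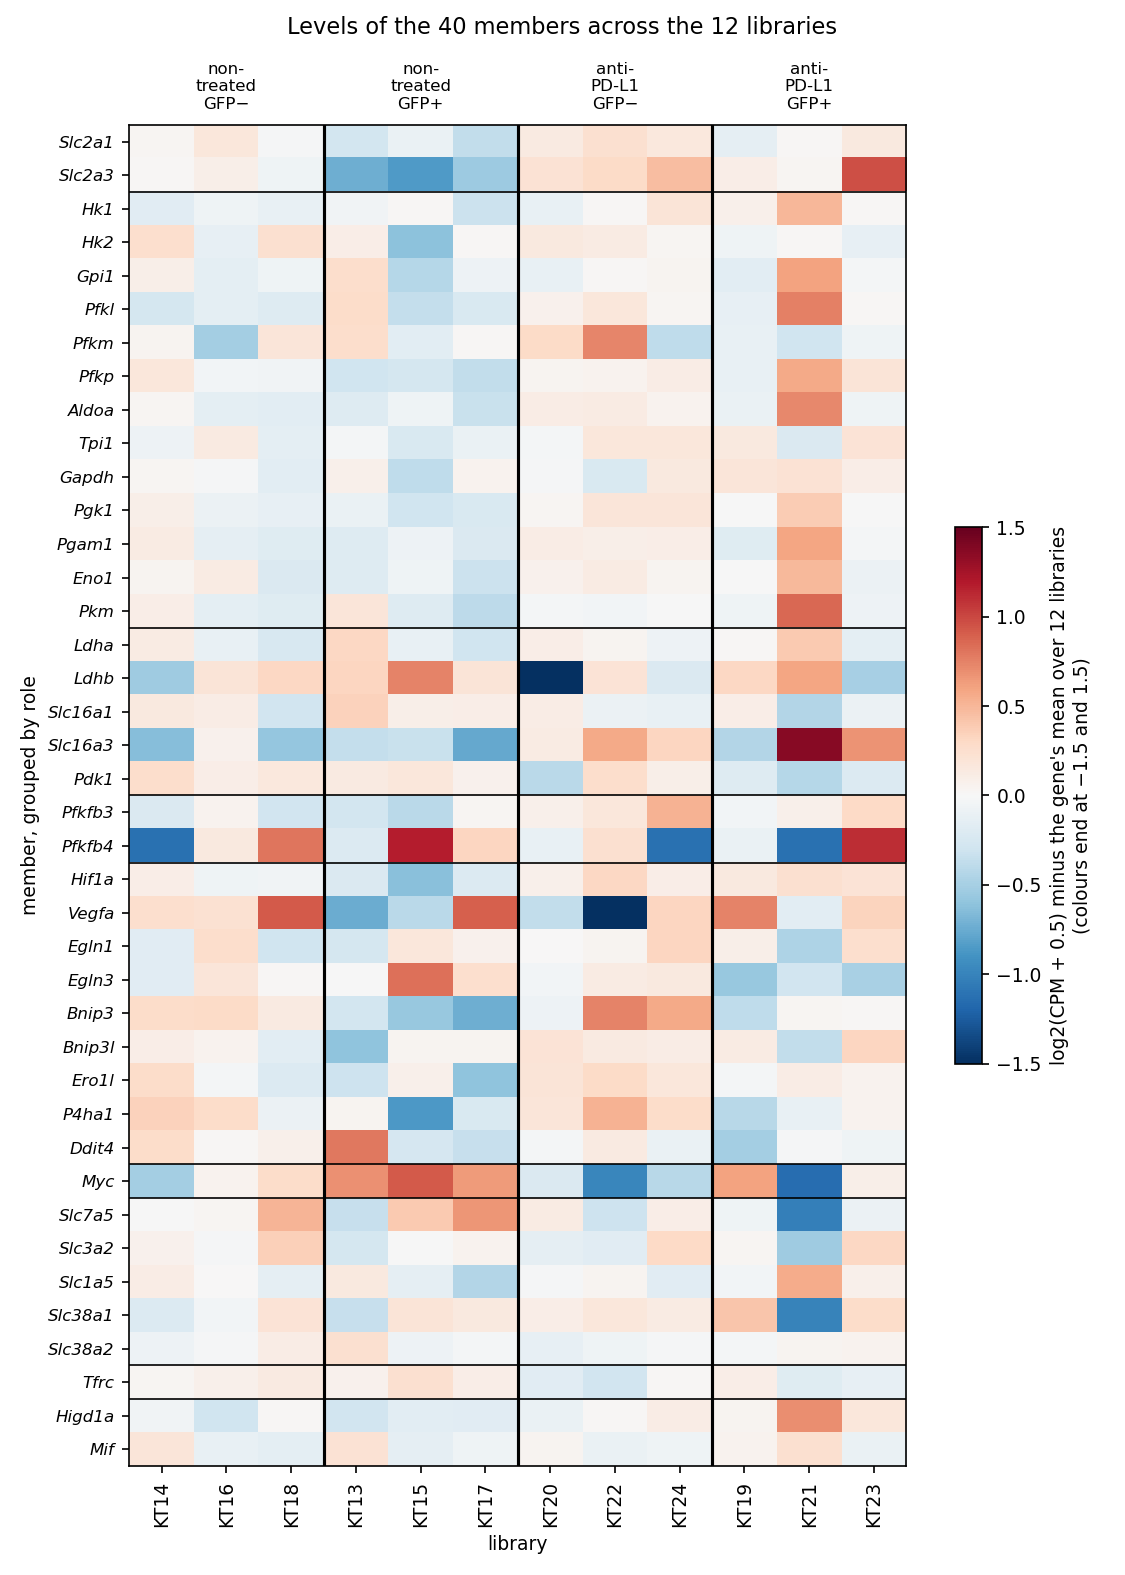
Each row is 1 of the 40 members, each column 1 of the 12 libraries, and the colour gives log2(CPM + 0.5) minus the gene's mean over all 12 libraries, with black lines between groups and between roles. KT21 stands out as the highest library for 10 of 13 glycolytic enzymes, and the non-treated GFP+ libraries are the lowest of all for Slc2a3.

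Part of the counts of a few members depends on how reads shared with copies were counted. Of the distinct 75-base stretches in the last 500 bases of their transcripts, 63.3% for Eno1, 58.6% for Gapdh and 49.1% for Mif also occur in transcripts of other genes, which are mostly processed pseudogenes for Gapdh (99 genes) and include Eno1b for Eno1. Higd1a shares 9.38%, with copies that held 5232 counts against 26812 for Higd1a. Levels of these 4 genes are uncertain for this reason. Slc2a3, Slc16a3, Hif1a, Myc, Pfkp and Egln3 shared none, and Bnip3 shared 15.0% with copies that held 1 count in total against 3974 for Bnip3.

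The promoters of the members are shown because HIF-1 binds the core ACGTG or GCGTG and MYC binds the E-box CACGTG. The 250 bases before the annotated start were taken from RefSeq (GRCm38.p6), which gave 48 windows for 34 of the 40 members, several for 10 of them. Slc2a3, Bnip3l, Myc, Slc7a5, Slc1a5 and Slc38a1 had no window. Both strands were searched, and a CACGTG holds an ACGTG on each strand. ACGTG was found in 24 of the 48 member windows, against 16.6% of all 32851 windows and 21.6% of the 12037 windows of genes tested here. GCGTG was found in 54.2%, against 28.2% and 44.2%, and CACGTG in 12.5%, against 6.02% and 8.27%. The member windows had a median GC content of 62.8%, against 59.6% for windows of the genes tested. The windows of Bnip3 (chr7:138909507-138909756, minus strand), Slc16a3 (chr11:120948817-120949066, plus strand) and Hif1a (chr12:73907617-73907866, plus strand) are printed as a choice among the members with a window, a mitophagy gene, the lactate exporter and the HIF-1 subunit, and the first window of Ldha (chr7:46845554-46845803, plus strand) because it holds the most ACGTG matches, 5. Capitals mark ACGTG or GCGTG on either strand, so that CACGT and CACGC are the same cores read on the other strand.
Bnip3: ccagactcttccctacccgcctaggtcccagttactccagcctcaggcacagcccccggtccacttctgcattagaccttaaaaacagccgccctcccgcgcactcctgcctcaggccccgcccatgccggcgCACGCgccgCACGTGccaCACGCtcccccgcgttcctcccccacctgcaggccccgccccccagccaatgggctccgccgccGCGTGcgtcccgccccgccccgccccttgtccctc
Slc16a3: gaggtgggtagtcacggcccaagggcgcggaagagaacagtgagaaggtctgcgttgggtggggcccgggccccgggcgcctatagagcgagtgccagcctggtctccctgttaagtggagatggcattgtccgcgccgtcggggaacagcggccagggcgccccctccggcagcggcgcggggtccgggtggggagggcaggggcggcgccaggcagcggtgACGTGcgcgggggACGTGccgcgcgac
Hif1a: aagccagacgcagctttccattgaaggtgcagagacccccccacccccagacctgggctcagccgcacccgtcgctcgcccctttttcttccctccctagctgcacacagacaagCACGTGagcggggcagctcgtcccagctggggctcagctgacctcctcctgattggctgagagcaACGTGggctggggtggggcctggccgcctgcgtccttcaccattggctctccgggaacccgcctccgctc
Ldha: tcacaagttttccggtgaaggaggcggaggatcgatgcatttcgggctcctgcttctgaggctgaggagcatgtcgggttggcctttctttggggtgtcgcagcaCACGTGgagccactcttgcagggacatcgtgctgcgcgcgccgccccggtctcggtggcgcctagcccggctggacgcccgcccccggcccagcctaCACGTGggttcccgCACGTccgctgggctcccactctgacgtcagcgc

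In these windows Bnip3 has 1 CACGTG at −108 to −103 from the start and 3 GCGTG, Slc16a3 has 2 ACGTG within the last 27 bases, and Hif1a has 1 CACGTG and 1 further ACGTG. These matches are letters in a window, and binding was not measured.

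Non-treated GFP+ cells were compared with non-treated GFP− cells to see how the expression of these genes differs with reporter activity before treatment. GFP+ libraries held less Slc2a3 and Slc2a1 RNA, the 2 glucose transporters among the members, less Bnip3 and Hif1a, and more Myc, in each case without overlap of the 3 libraries a group. Slc2a3 was at 16.96 ± 1.82 CPM (SD, n = 3) in GFP+ and 28.3 ± 1.57 CPM in GFP− libraries, Bnip3 at 14.7 ± 2.45 and 25.0 ± 1.44 CPM, and Myc at 22.7 ± 2.43 and 13.1 ± 3.55 CPM. No member passed the test across all genes, and lack of overlap was about as common among the members as among all genes. Across 12 libraries 0 of 40 members passed edgeR's test at an adjusted p of 0.05, where 1 of 14173 genes tested did (0.00706%), and DESeq2 also called 0 members against 0.374% of genes. At an unadjusted p under 0.05 there were 5 members, against 6.05% of all genes: Slc2a1, Slc2a3, Hif1a and Bnip3 with lower and Myc with higher values in GFP+ cells, the 4 on the lower side standing against 2.84% of all genes. The 2 groups did not overlap for 6 of 40 members, the same 5 and Pfkp, a share close to the 12.8% of all genes without overlap. GFP+ lay below GFP− for 5 of these 6 members, against 6.63% of all genes. The median log2 fold change was −0.06 over the members and 0.00 over all genes.

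Slc2a3 encodes GLUT3, the high-affinity glucose transporter of T cells and neurons (chr6:122727809-122801640, minus strand). It was at 28.4, 29.8 and 26.6 CPM in non-treated GFP− and at 16.6, 15.3 and 18.9 CPM in non-treated GFP+ libraries. After anti-PD-L1 it was at 32.6, 34.3 and 38.7 CPM in GFP− and at 30.1, 28.6 and 55.1 CPM in GFP+ libraries. The 3 non-treated GFP+ libraries were the lowest of all 12, KT13 included. The log2 fold change of GFP+ against GFP− was −0.74 in non-treated cells (SE 0.23, edgeR adjusted p = 0.596) and 0.11 after anti-PD-L1 (SE 0.23, adjusted p = 0.993). Over 10 libraries it was −0.72 and 0.27, with adjusted p of 0.206 and 0.998.

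Slc2a1 encodes GLUT1, the basal glucose transporter that rises when T cells are activated (chr4:119108711-119137983, plus strand). Its level was 61.5, 68.0 and 59.6 CPM in non-treated GFP− against 49.6, 56.3 and 46.5 CPM in non-treated GFP+ libraries, and these groups did not overlap. After treatment the GFP− libraries were at 66.0, 71.3 and 67.6 CPM and the GFP+ libraries at 54.7, 61.0 and 66.8 CPM, which overlapped by less than 1 CPM. The log2 fold change was −0.31 in non-treated cells (SE 0.14, adjusted p = 0.818) and −0.17 after anti-PD-L1 (SE 0.14, adjusted p = 0.993).

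Bnip3 encodes a mitophagy receptor of the outer mitochondrial membrane and is a classical HIF-1 target (chr7:138890836-138909519, minus strand). It was at 25.7, 25.9 and 23.3 CPM in non-treated GFP− and 17.4, 14.1 and 12.6 CPM in non-treated GFP+ libraries. After anti-PD-L1 it was at 20.1, 35.8 and 31.6 CPM in GFP− and 16.1, 21.6 and 21.4 CPM in GFP+ libraries. The groups were apart in non-treated cells and overlapped after treatment through KT20. Its log2 fold change was −0.77 in non-treated cells (SE 0.23, adjusted p = 0.562) and −0.57 after anti-PD-L1 (SE 0.23, adjusted p = 0.993). Over 10 libraries the value in non-treated cells was −0.91 with an edgeR adjusted p of 0.098, and DESeq2 called it there (adjusted p = 0.034). A fit blocked on adjacent library codes, a pairing that no label states, also called Bnip3 over 10 libraries (edgeR adjusted p = 0.0206).

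Averaged over both treatments, Bnip3 had a log2 fold change of −0.67 (SE 0.16, edgeR adjusted p = 0.139) over 12 libraries. Without KT13 and KT21 the value was −0.77 and it passed (SE 0.16, adjusted p = 0.0119), so that Bnip3 was lower in GFP+ cells in that fit. DESeq2 called it over all 12 libraries (adjusted p = 0.0322). Bnip3l, which encodes the related receptor NIX, had −0.12 (SE 0.14, adjusted p = 0.86), and over 10 libraries 0.06.

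Myc encodes the transcription factor MYC (chr15:61985391-61990374, plus strand). It was at 9.19, 13.9 and 16.2 CPM in non-treated GFP− and at 21.7, 25.5 and 21.0 CPM in non-treated GFP+ libraries, and these did not overlap. After anti-PD-L1 it was at 11.4, 6.49 and 9.81 CPM in GFP− and 20.4, 5.76 and 14.1 CPM in GFP+ libraries, where KT21 was the lowest library of all 12. Without KT21 both anti-PD-L1 GFP+ libraries lay above the 3 GFP− libraries. Averaged over both treatments the log2 fold change was 0.67 over 12 libraries (SE 0.26, adjusted p = 0.515) and 0.87 over 10 (SE 0.19, adjusted p = 0.0189), so that Myc passed, higher in GFP+ cells, over 10 libraries and not over 12.

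Hif1a encodes the oxygen-regulated subunit of HIF-1 (chr12:73901375-73947530, plus strand). Non-treated GFP− libraries had 90.7, 80.8 and 81.6 CPM and non-treated GFP+ libraries 72.8, 54.6 and 73.4 CPM, without overlap. Anti-PD-L1 GFP− libraries had 89.5, 105 and 90.8 CPM and anti-PD-L1 GFP+ libraries 93.8, 100.3 and 97.9 CPM, which overlapped. The log2 fold change of GFP+ against GFP− was −0.33 in non-treated cells (SE 0.15, adjusted p = 0.818) and 0.03 after anti-PD-L1 (SE 0.15, 95% interval −0.29 to 0.36). Without KT15, the lowest library, the former was −0.21. HIF-1α protein is controlled mainly after translation, which RNA counts do not show.

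In the same comparison after anti-PD-L1, 0 of 40 members passed edgeR's test against 0.0282% of genes, DESeq2 called 0 against 0.375%, and Bnip3 alone had an unadjusted p under 0.05 against 4.08% of genes. The groups did not overlap for Hk2, Egln3, Ero1l and P4ha1, all 4 with GFP+ below GFP−. This compares with 10.6% of all genes not overlapping and 5.33% with GFP+ below. The median log2 fold change was 0.08 over the members and 0.00 over all genes. Over 10 libraries the edgeR test with no block on library codes called 0 members in non-treated cells, where 0.339% of genes passed, and 0 after anti-PD-L1, where 0.17% passed. At an unadjusted p under 0.05 there were 9 members in non-treated cells against 9.24% of genes, and 3 after anti-PD-L1 against 5.34%. The median over the members was then −0.10 in non-treated cells and −0.03 after anti-PD-L1, so that the latter changed sign.

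P4ha1 encodes a subunit of collagen prolyl 4-hydroxylase, and its levels were 14.8, 14.0 and 10.8 CPM in non-treated GFP−, 11.8, 6.08 and 9.76 CPM in non-treated GFP+, 13.1, 16.8 and 14.0 CPM in anti-PD-L1 GFP− and 8.502, 10.6 and 11.9 CPM in anti-PD-L1 GFP+ libraries. Averaged over treatments its log2 fold change was −0.51 (SE 0.19, adjusted p = 0.491), and it did not pass over 10 libraries either (−0.63, adjusted p = 0.163). Ero1l, an oxidase of the endoplasmic reticulum, had −0.23 (SE 0.13, adjusted p = 0.692). Ddit4 encodes REDD1, an inhibitor of mTORC1 that responds to hypoxia and stress. It was at 119, 101 and 104 CPM in non-treated GFP− and at 172, 83.3 and 77.8 CPM in non-treated GFP+ libraries, where KT13 was the highest library of all. After treatment it was at 97.3, 109 and 92.6 CPM in GFP− and 69.6, 98.0 and 94.6 CPM in GFP+ libraries. Its averaged log2 fold change was −0.08 with KT13 and KT21 (SE 0.18, adjusted p = 0.936) and −0.35 without them (SE 0.10, adjusted p = 0.121), where DESeq2 called it.

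Averaged over treatments, edgeR called 0 of 40 members over 12 libraries, where 0.31% of genes passed, and DESeq2 called 1, Bnip3, where 1.11% of genes passed. Slc2a1, Bnip3, P4ha1 and Myc had an unadjusted p under 0.05, 4 of 40 members against 8.18% of genes. Over 10 libraries edgeR called 2 members, Bnip3 and Myc, against 1.08% of genes. The median log2 fold change was −0.05 over 12 and −0.11 over 10 libraries, with all genes at 0.00 in both. Markers of other cells moved with the sort. Ncr1 and Klrb1c summed to 15.9 to 33.9 CPM in GFP− and 43.1 to 55.3 CPM in GFP+ libraries, mostly Klrb1c, a natural killer cell marker that some CD8+ T cells also express. In non-treated cells the CD8 T cell markers summed to 4540 to 4643 CPM in GFP− and 3867 to 4233 CPM in GFP+ libraries, and the endothelium markers to 12.8 to 15.7 and 19.6 to 24.5 CPM. The endothelium sum was mostly Pecam1, with Cdh5 at 0 in 11 libraries and Kdr at most 2.22 CPM. Proliferation markers summed to 1137 to 1159 CPM in non-treated GFP− and 1160 to 1211 CPM in non-treated GFP+ libraries, apart by a narrow margin. With the antibody these sums overlapped, at 1029 to 1130 CPM in GFP− and 972 to 1174 CPM in GFP+ libraries. After anti-PD-L1 the tumor epithelium markers summed to 201 to 305 CPM in GFP− and 135 to 198 CPM in GFP+ libraries, and Cd4 and Foxp3 to 15.9 to 24.9 and 6.89 to 15.3 CPM. Their part in these values was not tested.

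**Figure D2:**
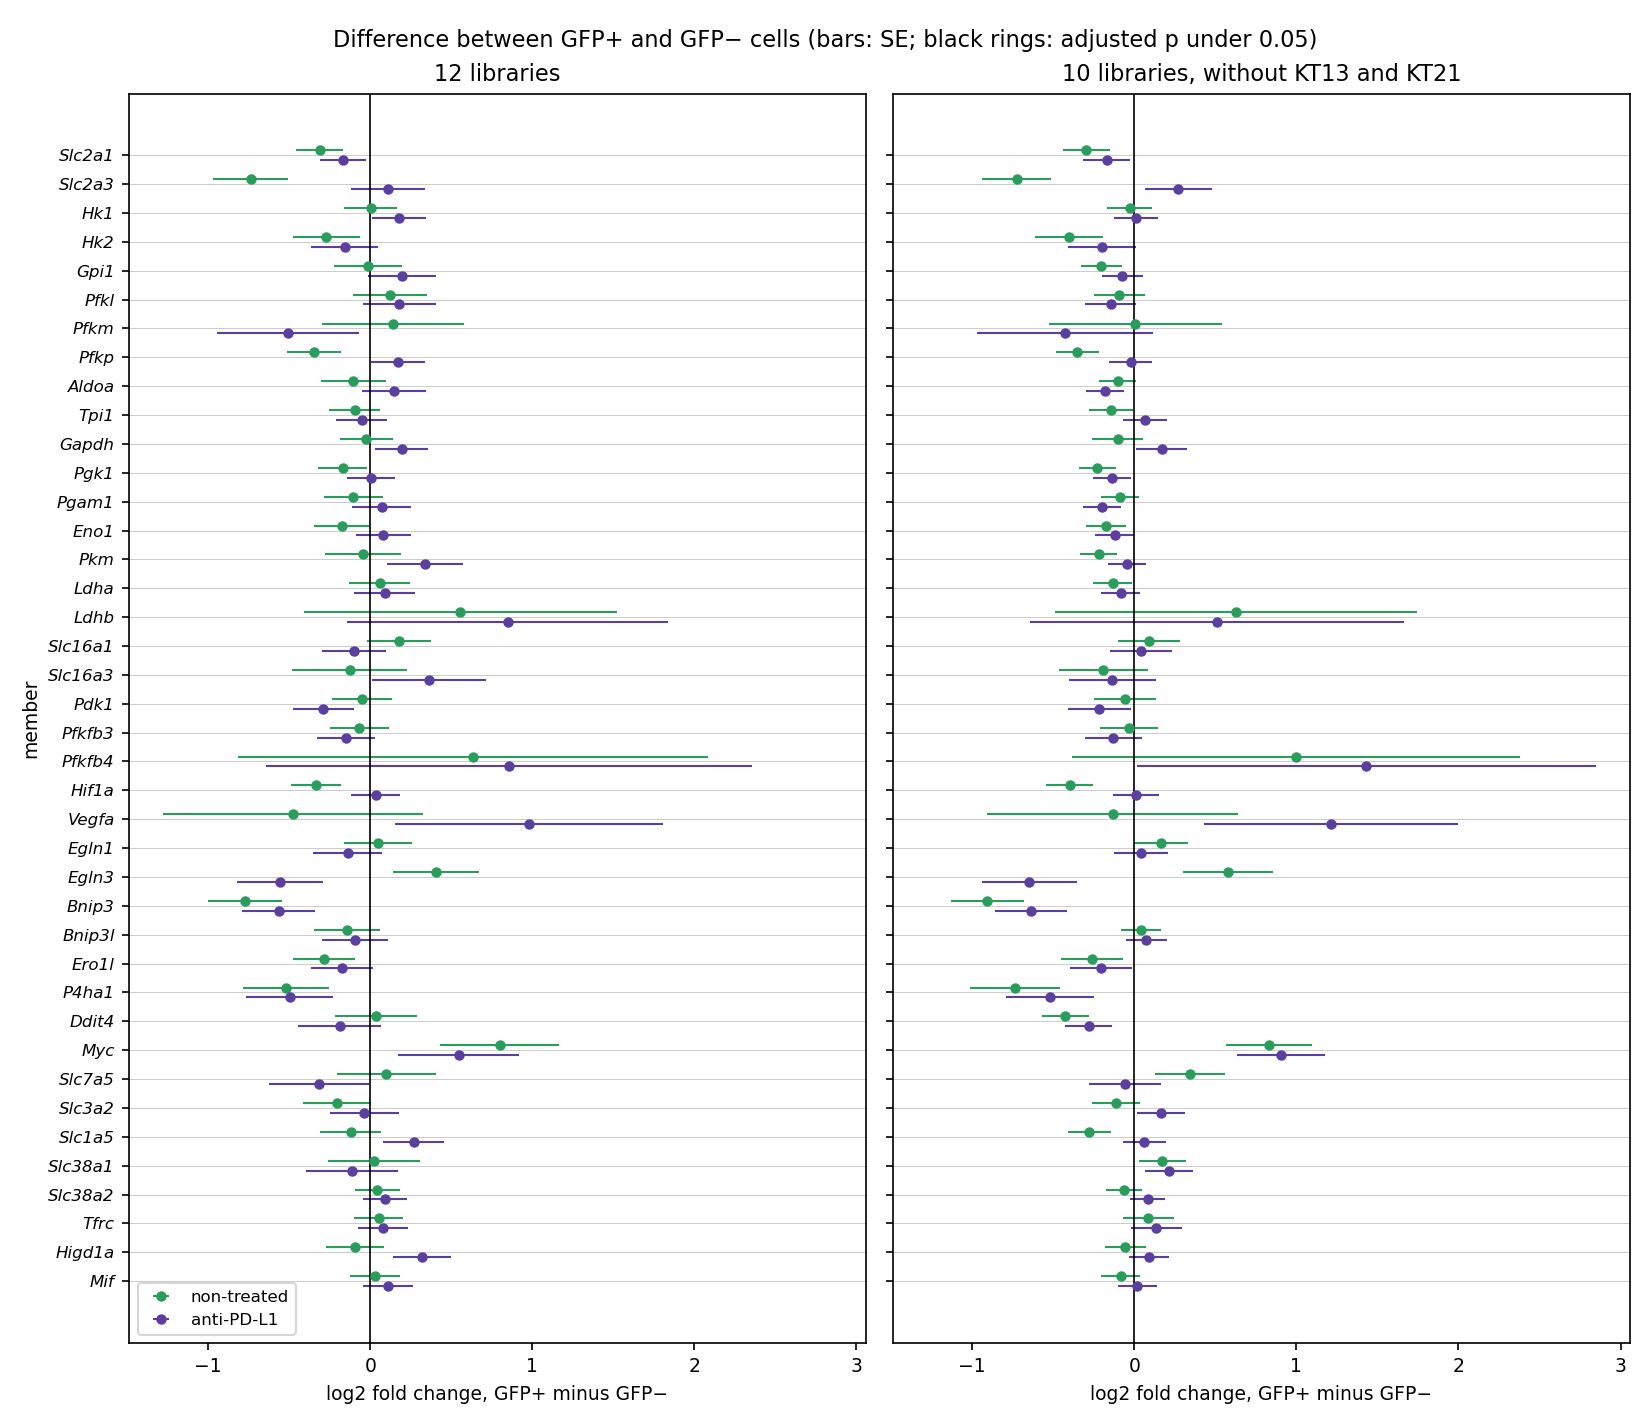
Points are log2 fold changes of GFP+ against GFP− cells for each of the 40 members with bars of 1 SE, in non-treated and anti-PD-L1 cells, over 12 libraries on the left and over the 10 without KT13 and KT21 on the right. No member has a black ring, since 0 passed the adjusted p of 0.05 in either comparison. In non-treated cells over 12 libraries Bnip3 (−0.77) and Slc2a3 (−0.74) lie farthest to the left.

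**Figure D3:**
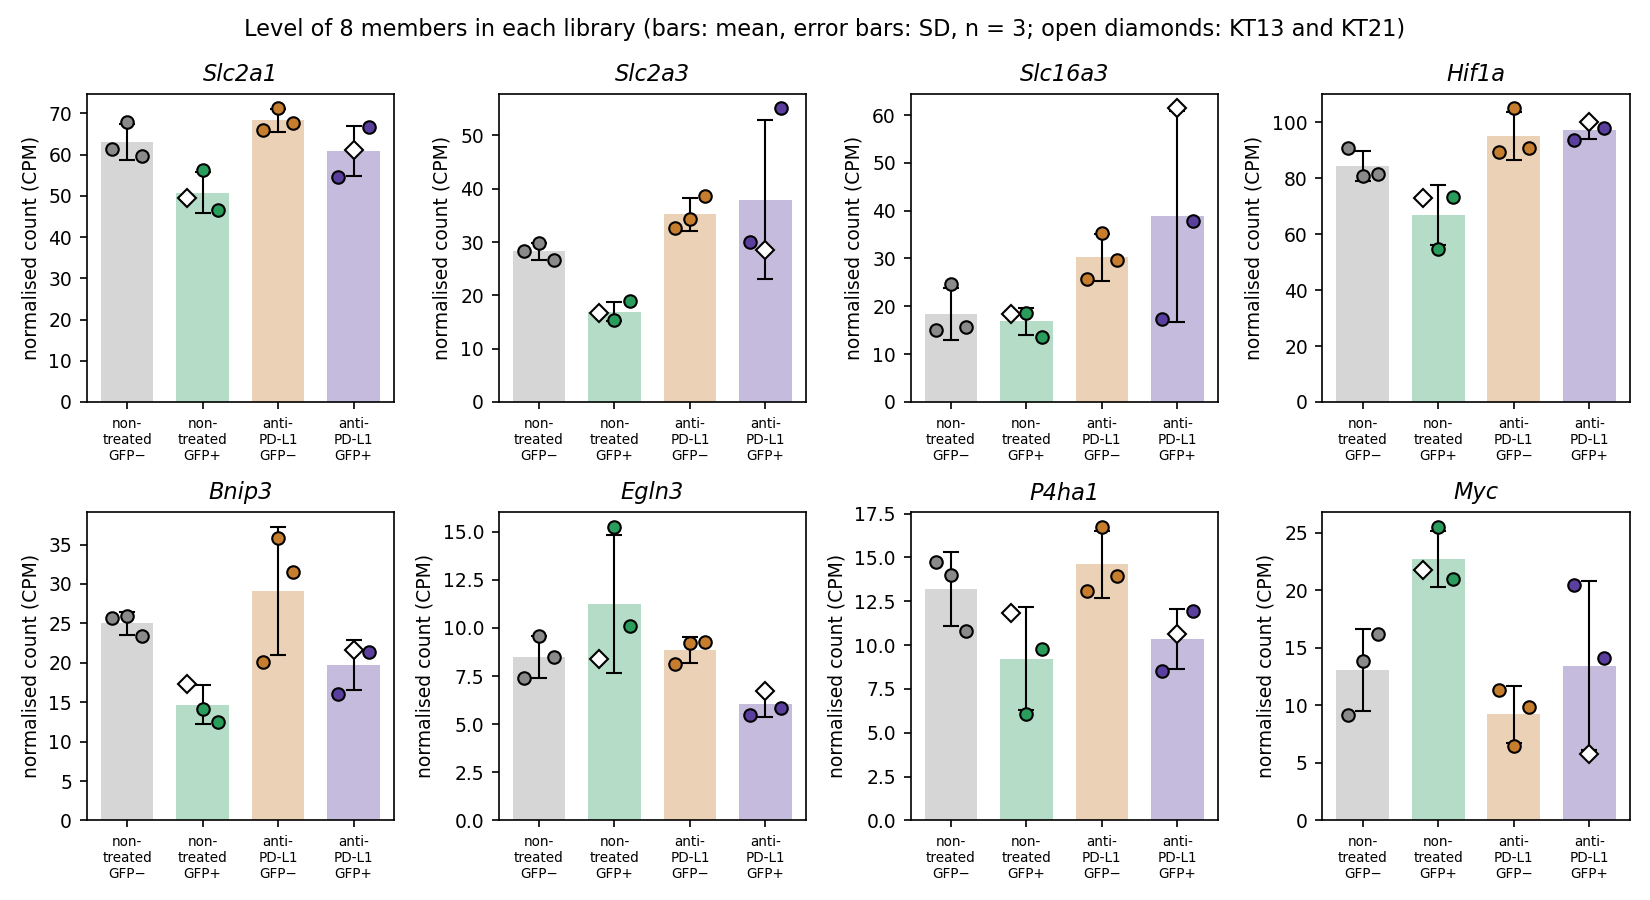
Normalised counts in CPM of 8 members in each library, with bars for the group mean and error bars for the SD of 3 libraries. Open diamonds are KT13 and KT21. Slc2a3 is lowest in the 3 non-treated GFP+ libraries (15.3 to 18.9 CPM) and Myc is highest there (21.0 to 25.5 CPM).

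Anti-PD-L1 was compared with no treatment within GFP+ and within GFP− cells to see what the antibody did to these genes in each population. With the filter on low counts, Slc2a3 was the single member that edgeR called in either set of libraries: in GFP+ cells it was at 37.9 ± 14.9 CPM (SD, n = 3) with and 16.96 ± 1.82 CPM without the antibody, and it passed the test once KT13 and KT21 were left out. Hif1a, Pfkp and Higd1a had higher and Egln3 and Pdk1 lower values in treated GFP+ libraries, and Slc16a3 had a higher mean with overlapping libraries. None of these passed edgeR's filtered test in either set, and Slc16a3 was called without the filter. In GFP− cells no member passed edgeR's test in either set of libraries. In GFP+ cells 0 of 40 members passed edgeR's test over 12 libraries, where 0.0141% of genes did, and DESeq2 called 1, Slc2a3, where 0.697% of genes passed. At an unadjusted p under 0.05 there were 9 members against 6.74% of genes: Slc2a3, Pfkp, Aldoa, Pgk1, Slc16a3, Hif1a and Higd1a with higher and Pdk1 and Egln3 with lower values after treatment. The 7 on the higher side compare with 3.13% of all genes. The groups did not overlap for 10 members against 10.3% of genes, 7 of them above against 4.66%. The median log2 fold change was 0.21 over the members, with 28 of 40 above 0, and −0.01 over all genes. Over 10 libraries edgeR called 1 member, Slc2a3, against 0.563% of genes, and the median was 0.18.

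Both this comparison and the GFP comparison in non-treated cells use the 3 non-treated GFP+ libraries, so low values there enter both. Slc2a3, with the library values given above, had a log2 fold change of 1.16 in GFP+ cells (SE 0.23, edgeR adjusted p = 0.0946), and each anti-PD-L1 GFP+ library lay above each non-treated one. Without KT13 and KT21 it passed and rose by 1.31 on the log2 scale (SE 0.23, adjusted p = 0.00393), and it also passed when KT21 alone was left out (1.33, adjusted p = 0.0344). KT23 at 55.1 CPM was the highest library of all 12, and without KT23 the value was 0.81, the lowest of those with 1 library left out. In GFP− cells the log2 fold change of Slc2a3 was 0.32 (SE 0.23, 95% interval −0.17 to 0.80, adjusted p = 1), and those groups did not overlap either. Slc2a1 had 0.26 in GFP+ (SE 0.14, adjusted p = 0.812) and 0.12 in GFP− cells (SE 0.14, adjusted p = 1).

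Slc16a3 encodes MCT4, the lactate exporter of glycolytic cells (chr11:120948480-120960868, plus strand). It was at 15.0, 24.7 and 15.6 CPM in non-treated GFP− and at 18.3, 18.7 and 13.7 CPM in non-treated GFP+ libraries. After anti-PD-L1 it was at 25.7, 35.4 and 29.6 CPM in GFP− and at 17.3, 61.4 and 37.8 CPM in GFP+ libraries. GFP− groups did not overlap, whereas KT19 fell within the non-treated GFP+ range and KT21 was the highest library of all. Its log2 fold change was 1.20 in GFP+ (SE 0.36, adjusted p = 0.421) and 0.71 in GFP− cells (SE 0.35, adjusted p = 1). Without KT13 and KT21 these became 0.77 (adjusted p = 0.422) and 0.71 (adjusted p = 0.423). Averaged over GFP+ and GFP− it was 0.96 (SE 0.25, adjusted p = 0.191) over 12 and 0.74 (SE 0.19, adjusted p = 0.0574) over 10 libraries.

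Hif1a had a log2 fold change of 0.54 after anti-PD-L1 in GFP+ cells (SE 0.15, adjusted p = 0.379), where all 3 treated libraries lay above all 3 non-treated ones, and 0.17 in GFP− cells (SE 0.15, adjusted p = 1). Over 10 libraries the GFP+ value was 0.58 (SE 0.16, adjusted p = 0.116), and DESeq2 called Hif1a in that set (0.57, adjusted p = 0.0415). Egln3 encodes the prolyl hydroxylase PHD3, itself induced by HIF (chr12:54178981-54203860, minus strand). It was at 7.38, 9.59 and 8.51 CPM in non-treated GFP−, 8.37, 15.3 and 10.1 CPM in non-treated GFP+, 8.10, 9.20 and 9.29 CPM in anti-PD-L1 GFP− and 5.48, 6.75 and 5.85 CPM in anti-PD-L1 GFP+ libraries. The 3 anti-PD-L1 GFP+ libraries were the lowest of all 12. In GFP+ cells its fold change was −0.90 on the log2 scale (SE 0.27, adjusted p = 0.42) over 12 and −1.16 (SE 0.32, adjusted p = 0.123) over 10 libraries, and in GFP− cells 0.06 (SE 0.26). Egln1, the main oxygen-sensing hydroxylase, had −0.01 (SE 0.21) in GFP+ and 0.17 (SE 0.21) in GFP− cells.

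Higd1a, a hypoxia-induced protein of the inner mitochondrial membrane (chr9:121848563-121858362, minus strand), was at 122, 133 and 132 CPM in non-treated GFP+ and 153, 242 and 167 CPM in anti-PD-L1 GFP+ libraries. GFP− libraries held 143, 121 and 150.1 CPM without and 139, 151 and 161 CPM with treatment. The GFP+ groups did not overlap, and KT21 was the highest. The log2 fold change in GFP+ cells was 0.54 with KT13 and KT21 (SE 0.18, adjusted p = 0.489) and 0.27 without (SE 0.14, adjusted p = 0.608), and 0.31 without KT21 alone. Pdk1 encodes pyruvate dehydrogenase kinase 1 (chr2:71873224-71903858, plus strand). Its values were 28.3, 29.2 and 27.0 CPM in non-treated and 22.4, 19.0 and 22.3 CPM in anti-PD-L1 GFP+ libraries, which did not overlap, and 31.1, 27.7 and 28.7 CPM against 19.3, 31.2 and 27.4 CPM in GFP− libraries, which did. Its log2 fold change in GFP+ cells was −0.41 (SE 0.19, adjusted p = 0.736).

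In GFP− cells 0 of 40 members passed edgeR's test after anti-PD-L1, where 0% of genes passed, and DESeq2 called 0 members against 0.233% of genes. Pfkfb3 alone had an unadjusted p under 0.05, against 3.44% of genes. The groups did not overlap for 7 members, Slc2a3, Pfkl, Aldoa, Slc16a3, Pfkfb3, Bnip3l and Tfrc, against 12.3% of genes, with treated above non-treated for 6 of them against 6.08%, and Tfrc below. Over 10 libraries edgeR called 0 members against 0.373% of genes, with 3 at an unadjusted p under 0.05 against 7.22%. Pfkfb3 makes fructose 2,6-bisphosphate, the strongest activator of phosphofructokinase (chr2:11471433-11554077, minus strand). It was at 40.4, 48.7 and 38.6 CPM in non-treated and 49.8, 52.7 and 67.4 CPM in treated GFP− libraries, with 38.7, 35.5 and 47.8 CPM against 45.7, 49.6 and 58.1 CPM in GFP+ libraries. Its fold change was 0.41 on the log2 scale in GFP− (SE 0.18, adjusted p = 1), 0.27 there without KT24, and 0.33 in GFP+ cells (SE 0.18, adjusted p = 0.808). Averaged over both it was 0.37 in 12 and in 10 libraries, with adjusted p of 0.414 and 0.204.

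Averaged over GFP+ and GFP− cells, edgeR called 0 members over 12 libraries against 0.395% of genes. The lowest adjusted p was that of Slc2a3 (log2 fold change 0.74, SE 0.16, adjusted p = 0.0846). DESeq2 called 2, Slc2a3 and Slc16a3, against 1.3% of genes, and 11 members had an unadjusted p under 0.05 against 7.67% of genes, 8 of them with higher values after treatment against 3.18%. Over 10 libraries edgeR called 1 member, Slc2a3 (0.82, SE 0.15, adjusted p = 0.00301), against 1.36% of genes. The median log2 fold change was 0.14 over 12 and 0.13 over 10 libraries, and all genes had −0.01 and 0.00. Markers of several cell types moved with treatment. The 10 macrophage and monocyte markers summed to 153 to 222 CPM in non-treated GFP−, 202 to 284 CPM in non-treated GFP+, 78.0 to 131 CPM in anti-PD-L1 GFP− and 87.0 to 166 CPM in anti-PD-L1 GFP+ libraries, with C1qa highest among them at 26.6 to 96.2 CPM, Apoe at up to 46.2 CPM and Adgre1 at up to 1.997 CPM. The 6 tumor epithelium markers summed to 232 to 325 CPM, 210 to 305 CPM, 201 to 305 CPM and 135 to 198 CPM in the same groups, most of it Cdh1, with Krt8 at most 6.21 CPM and Krt19 at 0 in 9 libraries. Natural killer cell markers were at 21.3 to 33.9 CPM without and 15.9 to 20.8 CPM with treatment in GFP− libraries, and at 52.6 to 55.3 and 43.1 to 49.8 CPM in GFP+ libraries. Endothelium markers, mostly Pecam1, were at 19.6 to 24.5 and 9.92 to 15.8 CPM in GFP+ libraries. CD8 T cell markers summed to 4540 to 4643 CPM without and 5116 to 5362 CPM with treatment in GFP− libraries, and to 3867 to 4233 and 4633 to 6016 CPM in GFP+ libraries. Their part in the values of the members was not tested, and in sorted bulk samples fewer cells of a type and less RNA per cell cannot be told apart.

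**Figure D4:**
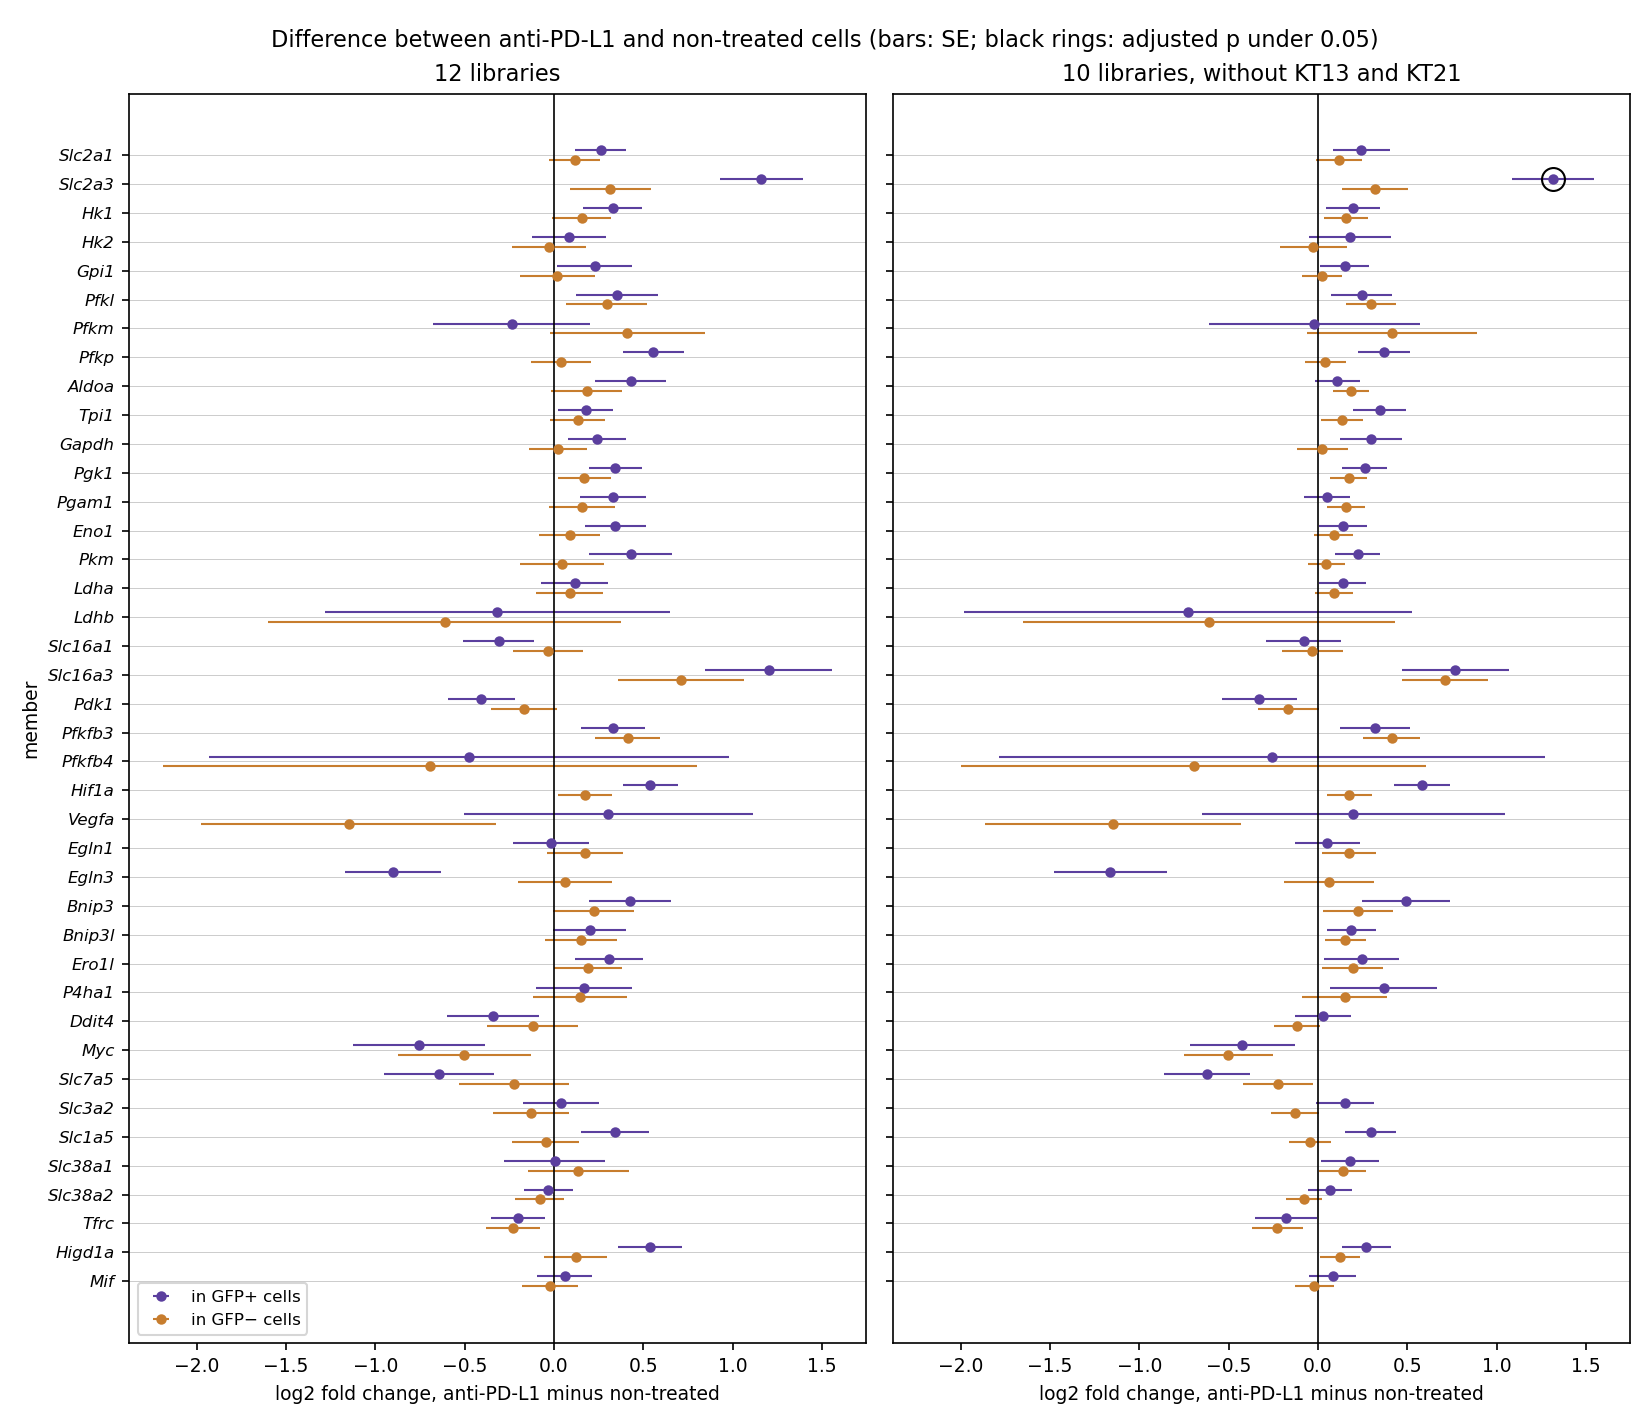
Points are log2 fold changes of anti-PD-L1 against non-treated cells for each of the 40 members with bars of 1 SE, in GFP+ and GFP− cells, over 12 libraries on the left and over 10 on the right. The black ring marks Slc2a3 in GFP+ cells over 10 libraries (1.31), the single value past the adjusted p of 0.05.

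The interaction asked whether the antibody's difference was larger in GFP+ than in GFP− cells. EdgeR called 0 of 40 members over 12 libraries and 0 over 10, with 0% of genes called in both, and DESeq2 called 0 over 12 against 0% of genes. Slc2a3 (0.84, SE 0.32), Pfkp (0.52, SE 0.24) and Egln3 (−0.96, SE 0.38) had an unadjusted p under 0.05, 3 of 40 members against 2.08% of genes, and each had an adjusted p of 1. For Slc2a3 the 95% interval ran from 0.15 to 1.54, so that the size of any difference between the populations is poorly fixed by 3 libraries a group.

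None of the 13 glycolytic enzymes passed edgeR's test in any of the 7 comparisons, over 12 or over 10 libraries. At most 0.395% of all genes passed in a comparison over 12 libraries and at most 1.36% over 10. KT21 stood above the rest for most of the enzymes. Pkm encodes pyruvate kinase, the last step of glycolysis (chr9:59656368-59679375, plus strand), and was at 624 CPM in KT21 against 261 to 388 CPM in the other 11 libraries. Its values were 368, 309 and 301 CPM in non-treated GFP−, 388, 299 and 261 CPM in non-treated GFP+, 337, 332 and 341 CPM in anti-PD-L1 GFP−, and 327 and 326 CPM in KT19 and KT23. In GFP+ cells its fold change with treatment was 0.43 on the log2 scale with KT13 and KT21 (SE 0.23, adjusted p = 0.805) and 0.22 without (SE 0.13, adjusted p = 0.68). Aldoa, which encodes aldolase A and is listed under 2 identifiers of which 1 has no counts, was at 469 CPM in KT21 and 225 to 308 CPM elsewhere. Its value in the same comparison was 0.43 over 12 and 0.11 over 10 libraries (adjusted p = 0.726 and 0.897).

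Pfkp encodes the platelet-type phosphofructokinase, the committing step of glycolysis (chr13:6579768-6648777, minus strand). It was at 129, 111 and 109.8 CPM in non-treated GFP−, 92.4, 94.8 and 87.9 CPM in non-treated GFP+, 118, 118 and 123 CPM in anti-PD-L1 GFP−, and 105, 169 and 131 CPM in anti-PD-L1 GFP+ libraries. As for Slc2a3, the 3 non-treated GFP+ libraries were the lowest of all. The log2 fold change was −0.35 for GFP+ against GFP− in non-treated cells (SE 0.17, adjusted p = 0.854) and 0.56 for treatment in GFP+ cells (SE 0.17, adjusted p = 0.429). Over 10 libraries these were −0.35 (adjusted p = 0.376) and 0.37 (adjusted p = 0.418), and the latter was also 0.37 without KT21 alone. Pgk1, which encodes phosphoglycerate kinase (chrX:106187100-106203699, plus strand), was at 195, 170.2 and 178 CPM in non-treated GFP+ and 209, 272 and 208 CPM in anti-PD-L1 GFP+ libraries, without overlap. GFP− libraries held 222, 197 and 192 CPM and, with antibody, 213, 237 and 237 CPM. Its log2 fold change in GFP+ cells was 0.34 (SE 0.15, adjusted p = 0.709), 0.21 without KT21 and 0.26 over 10 libraries (adjusted p = 0.584).

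Hk2 encodes the inducible hexokinase. It was at 25.0, 19.2 and 24.8 CPM in non-treated GFP−, 22.4, 13.5 and 21.3 CPM in non-treated GFP+, 23.3, 22.8 and 21.4 CPM in anti-PD-L1 GFP− and 20.03, 21.2 and 19.3 CPM in anti-PD-L1 GFP+ libraries. The last 2 groups did not overlap but were apart by less than 1 CPM, and the log2 fold change between them was −0.16 (SE 0.21, 95% interval −0.60 to 0.29). Gapdh, uncertain because of its copies, was at 56.2, 54.7 and 49.5 CPM in non-treated GFP−, 58.1, 42.2 and 57.4 CPM in non-treated GFP+, 54.6, 47 and 61.2 CPM in anti-PD-L1 GFP− and 62.8, 64.2 and 59.3 CPM in anti-PD-L1 GFP+ libraries. It was lowest in KT15 and highest in KT21, with log2 fold changes from −0.02 to 0.24 in the 4 comparisons of 2 groups. Mean centred levels of the 13 enzymes were 0.40 in KT21 and between −0.24 and 0.12 in the other libraries on the log2(CPM + 0.5) scale.

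Among the genes of lactate handling, Ldha, which turns pyruvate into lactate, was at 405, 344 and 314 CPM in non-treated GFP−, 461, 344 and 302 CPM in non-treated GFP+, 396, 381 and 351 CPM in anti-PD-L1 GFP− and 375, 489.5 and 336 CPM in anti-PD-L1 GFP+ libraries. All 4 groups overlapped, and KT13 and KT21 were the 2 highest libraries. Its log2 fold changes were 0.06, 0.09, 0.12 and 0.09 in the 4 comparisons (SE 0.19), and the interval of the largest was −0.28 to 0.52. Without KT13 and KT21 the GFP+ mean lay below the GFP− mean, at 322 against 353 CPM in non-treated cells. After anti-PD-L1 these means were 355 and 376 CPM. Slc16a1 encodes MCT1, the lactate transporter of resting and dividing cells. It ranged from 16.2 to 28.3 CPM, lowest in KT21 and highest in KT13, the reverse of Slc16a3 in KT21. Ldhb and Pfkfb4 had fold changes with SEs between 0.97 and 1.5 on the log2 scale, too wide for a comparison.

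No amino acid or iron transporter passed edgeR's test in any of the 7 comparisons over 12 or 10 libraries. Of all genes, at most 0.395% passed in a comparison over 12 libraries and at most 1.36% over 10. KT21 was the lowest library for 3 of the 5 amino acid transporters. Slc7a5 encodes LAT1, the leucine carrier. It was at 16.8, 17.3 and 24.3 CPM in non-treated GFP−, 13.1, 22.2 and 27.0 CPM in non-treated GFP+, 18.3, 13.5 and 18.1 CPM in anti-PD-L1 GFP− and 16.1, 8.04 and 15.8 CPM in anti-PD-L1 GFP+ libraries. All comparisons overlapped over 12 libraries, and its log2 fold change with treatment in GFP+ cells was −0.64 (SE 0.31, adjusted p = 0.75) over 12 and −0.62 (SE 0.24, adjusted p = 0.418) over 10. Slc3a2 encodes CD98, the heavy chain that carries LAT1 to the membrane. It was at 151, 143 and 185 CPM, 121, 145 and 151 CPM, 132, 128 and 179 CPM, and 148, 100.3 and 179.9 CPM in the 4 groups, with log2 fold changes between −0.21 and 0.04.

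Slc1a5 encodes ASCT2, a glutamine transporter. Its levels were 137, 128 and 115 CPM in non-treated GFP−, 141, 116 and 93.7 CPM in non-treated GFP+, 125, 130.0 and 113 CPM in anti-PD-L1 GFP− and 123, 187 and 133 CPM in anti-PD-L1 GFP+ libraries, highest in KT21. Slc38a2, which encodes the neutral amino acid transporter SNAT2 that is induced by amino acid shortage, was at 249, 259.7 and 285 CPM, 312, 249.5 and 257 CPM, 241, 251 and 259 CPM, and 258, 271 and 272 CPM in the same order, highest in KT13. Its log2 fold changes in the 4 comparisons were between −0.08 and 0.09 (SE 0.14), with intervals inside −0.37 to 0.39. Slc38a1 was at 24.6 CPM in KT21 and between 38.9 and 66.3 CPM in the other libraries.

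Tfrc encodes CD71, through which dividing cells take up iron-loaded transferrin (chr16:32608920-32632794, plus strand). It was at 39.7, 41.2 and 42.9 CPM in non-treated and 34.4, 31.7 and 39.5 CPM in treated GFP− libraries, without overlap, and at 40.7, 46.0 and 41.6 CPM against 41.6, 34.2 and 35.8 CPM in GFP+ libraries, with overlap. Averaged over GFP+ and GFP− its log2 fold change with treatment was −0.22 (SE 0.11, edgeR adjusted p = 0.695). The 16 listed proliferation markers summed to 1137 to 1159 CPM in non-treated and 1029 to 1130 CPM in treated GFP− libraries, without overlap, and to 1160 to 1211 and 972 to 1174 CPM in GFP+ libraries, with overlap. Their part in the values of Tfrc was not tested. Mif, a cytokine and HIF-1 target, ranged from 260.2 to 339.5 CPM.

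Other genes of these pathways were taken from 6 lists that share no gene with the members. Over 12 libraries edgeR called 0 genes of any list in any of the 7 comparisons, where at most 0.395% of all genes passed. Of 19 further genes of glycolysis and the pentose phosphate pathway tested, 3 had higher and 2 lower values in GFP+ cells at an unadjusted p under 0.05 when averaged over treatments, where 8.18% of all genes had such a p in either direction. The numbers were 1 higher and 3 lower of 30 genes for hypoxia sensing and targets, 2 and 1 of 19 for the MYC network and mTORC1, 0 and 1 of 13 for pyruvate entry and lactate, 1 and 0 of 8 for iron uptake and storage, and 0 and 0 of 26 for amino acid transport, serine synthesis and ATF4. For treatment averaged over GFP+ and GFP− the same counts were 1 and 1, 2 and 0, 0 and 1, 0 and 0, 0 and 1, and 0 and 0, against 7.67% of all genes. Slc2a6, a further glucose transporter family gene named after its values were seen, was at 0.0567, 0.558 and 0 CPM in non-treated GFP− and at 1.602, 1.203 and 2.59 CPM in non-treated GFP+ libraries (adjusted p = 0.706). Its values were higher in GFP+ than in GFP− cells, at levels of a few CPM or less. Tigar, which encodes a phosphatase that lowers fructose 2,6-bisphosphate and so opposes Pfkfb3, was the single gene of the lists called over 10 libraries. It was called for treatment averaged over GFP+ and GFP−, where 1.36% of all genes passed. It was at 13.7, 13.2 and 12.4 CPM in non-treated GFP− and 10.3, 5.00 and 9.30 CPM in non-treated GFP+ libraries, and after anti-PD-L1 at 19.4, 18.0 and 15.6 CPM in GFP− and 13.1, 11.3 and 17.6 CPM in GFP+ libraries. Both treated groups lay above their non-treated group. Averaged over both, its log2 fold change with treatment was 0.60 over 12 (SE 0.19, adjusted p = 0.335) and 0.77 over 10 libraries (SE 0.18, adjusted p = 0.0335).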

How the data were processed

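The authors deposited 1 table of raw read counts per gene and library. Per the study's methods and the submitters' notes, the QuantSeq reads were trimmed with cutadapt (2.1 in the methods, 1.7 in the notes), HISAT2 placed them on mm10, and featureCounts assigned them to genes. Strand and multimapping settings are not given in the sources used here. Of 52636 identifiers, 52403 matched a symbol, and coordinates are from GENCODE vM21 (GRCm38).

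Counts were TMM-normalised and tested with edgeR 4.0.16 in R 4.3.3 (filterByExpr, quasi-likelihood F test, 1 fit over 4 groups, Benjamini-Hochberg adjustment over all 14173 genes, or 14747 over 10 libraries, threshold 0.05, two-sided). Scripts were tested on simulated data. Alternatives were DESeq2 1.42.0, other normalization and filters, and each library left out. The 40 members, the lists and the 10-library set were chosen with earlier results of these data known. A member is given in every library if it was called in any comparison, if its groups did not overlap at an unadjusted p under 0.05, or if it is 1 of 17 anchor genes; P4ha1, Tigar and Slc2a6, outside this rule, were added after their values were seen. Labels give no batch and no pairing, and a fit blocked on adjacent library codes was added after seeing the data. Reads carry no molecular identifiers, so counts are not independent molecules.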

Additional observations from a re-analysis of the deposited data

How the results depend on the processing

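The 16 fold changes of named members were recomputed under alternatives, 331 values in all: 310 kept their direction and their side of the threshold, 21 passed it where the value over 12 libraries had not, and 0 turned direction. These 16 were called in either set, or had groups without overlap at an unadjusted p under 0.05 over 12 libraries. Fold changes outside them did turn, such as that of Bnip3l averaged over treatments. The count of called members, 0 in each comparison with edgeR over 12 libraries, moved as follows. With DESeq2 it was 1 for treatment in GFP+ cells (Slc2a3), 1 for GFP averaged over treatments (Bnip3) and 2 for treatment averaged over GFP groups (Slc2a3, Slc16a3), against 0.697%, 1.11% and 1.3% of genes. Without a filter on low counts it was 2 (Slc2a3, Slc16a3), 1 (Bnip3) and 2 (Slc2a3, Slc16a3) against 0.466%, 0.772% and 0.844%. Over the 10 libraries it was 1 (Slc2a3), 2 (Bnip3, Myc) and 1 (Slc2a3) against 0.563%, 1.08% and 1.36%. With DESeq2 over the 10 libraries it was 2 (Slc2a3, Hif1a), 3 (Bnip3, Ddit4, Myc) and 3 (Slc2a3, Slc16a3, Hif1a) against 1.04%, 1.74% and 2.04%, and 1 (Bnip3) for GFP in non-treated cells against 1.1%. Leaving out 1 library at a time gave 0 to 1 for treatment in GFP+ cells (Slc2a3 without KT21) and 0 to 1 averaged over GFP groups (Slc2a3 without KT21, Slc16a3 without KT19). The shares of all genes called in these fits were computed but are not printed here, so nothing is concluded from these counts. With log2(CPM + 5) in place of log2(CPM + 0.5), the mean centred level of all members was 0.0104 in KT14, −0.0975 in KT15, −0.114 in KT17 and −0.0328 in KT18, against −0.0166, −0.0764, −0.0934 and 0.00807, and the sign also turned in KT16 (0.0107 to −0.00303) and KT20 (−0.0299 to 0.00205). The labels give no pairing. Adjacent codes (KT13 with KT14, and so on) could be the GFP+ and GFP− cells of 1 pool of mice, which no label states. Deviations from the group means correlated at 0.0398 to 0.212 across genes in these 6 pairs, and 4 of 6 GFP+ libraries correlated best with their neighbour. With a replicate block on these codes, chosen after seeing the data, edgeR called 0 members in each GFP comparison over 12 libraries. The shares of all genes for these fits are not printed here. Over 10 it called 1 in non-treated cells (Bnip3, adjusted p = 0.0206) against 0.99% of genes and 2 averaged over treatments (Bnip3, Myc) against 1.7%. Slc2a1, Hk2, Bnip3 and P4ha1 were lower in GFP+ in 6 of 6 such pairs. No share of all genes stands beside this count, so nothing is concluded from it. Treatment lies between these pairs and was not fitted with the block. If adjacent codes mark pools, the treatment tests averaged over GFP+ and GFP− count libraries of the same pool as independent. Their p-values, those of Slc2a3 and Tigar included, would then overstate the replication. The cause of these shifts was not tested. Depth limits Ldhb, Vegfa and Pfkfb4, each under 5 CPM, and 2 GFP+ libraries a treatment limit the smaller set.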
